A study of Solanum lycopersicum with 84 samples.

Results

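The 9 genes described here are the DNA methyltransferase genes MET1 (Solyc11g030600), CMT3 (Solyc01g006100), CMT2 (Solyc12g100330), DRM5 (Solyc02g062740) and DRM7 (Solyc04g005250) and the DEMETER-like DNA demethylase genes DML1 (Solyc09g009080), DML2 (Solyc10g083630), DML3 (Solyc11g007580) and DML4 (Solyc03g123440) of tomato. They were chosen by locus, not by a measured value, and are 9 of the 33976 genes in the count table. The count table gives loci only, so the gene names are working names. All 9 genes passed the filter on low counts and were among the 24676 genes tested.

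Transcripts were sequenced from developing seeds of the tomato cultivar Moneymaker, all untreated and grown in a greenhouse, in 84 libraries that make up 28 groups of 3. Embryo (Em) and endosperm (End) were dissected by hand at 35, 42 and 49 days after flowering (DAF) and at 8 later fruit stages, which were mature green (MG, 56 DAF), breaker (B, 63 DAF), pale orange (PO, 67 DAF), orange (O, 70 DAF), dark orange (DO, 72 DAF), red (R, 76 DAF) and red plus 7 and 14 days (R7, 83 DAF, and R14, 90 DAF). Seed coat (SC) was taken at 35, 42 and 49 DAF, and whole seed (S) at 15, 21 and 28 DAF. Each library pooled the RNA of several seeds, and the extraction kit was run with a different sample setting for embryo, endosperm and seed coat, so tissue and extraction cannot be told apart.

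In plants, cytosines are methylated in the CG, CHG and CHH contexts, where H is any base but G. MET1 copies CG methylation onto the new strand after replication, CMT3 maintains CHG methylation and CMT2 CHH methylation at sites marked by histone methylation, and DRM enzymes are guided to their targets by small RNAs, roles that are known mainly from Arabidopsis. DEMETER-like enzymes are DNA glycosylases that cut out methylated cytosine, which is then replaced by base excision repair. In flowering plants, active demethylation is known from the central cell that gives rise to the endosperm, and in tomato DML2 is known as the demethylase of the ripening fruit. The files hold transcript counts only, so methylation itself was not measured here.

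Levels are given in counts per 1000000 counts of the library (CPM), as mean ± SD over 3 libraries or for each library in replicate order. A change passed the test where edgeR gave a Benjamini-Hochberg adjusted p under 0.05 over all genes tested and an absolute log2 fold change above 1. The p-values rest on the spread between libraries of a group. That spread was estimated for each gene over all 28 groups together, not from the compared groups alone. Totals ranged from 16908779 to 22734330 counts, so 3 counts, the lower limit used here, correspond to 0.132 to 0.177 CPM. Such limits and the count intervals below cover counting error only. The 10 most abundant genes held 49.7 to 57.6% of all counts in 35 DAF embryos and 54.6 to 57.7% at 42 DAF, against 9.60 to 10.3% at R14, and the test scaled the libraries by TMM factors. With library totals in place of TMM, the median of all genes moved by more than 0.1 on the log2 scale in 20 of 29 comparisons, by -0.53 to 0.81. A tested fold can thus differ from the ratio of the CPM values beside it. The tissue labels were set against SlABI4-1 and SlABI4-2. These summed to between 24.7 and 146 CPM in embryos, against 0.144 to 8.88 CPM in endosperms and 0.269 to 3.03 CPM in seed coats. The study reported both as embryo genes from these same samples, so they are no independent check of the labels. The AGL11-type gene Solyc06g064840 had 214 to 441 CPM in seed coats, against 0 to 2.15 CPM in embryos and 0 to 5.85 CPM in endosperms. A further seed coat candidate, Solyc11g028020, was at 0 in all libraries and checked nothing, and no endosperm marker was used.

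**Figure D1:**
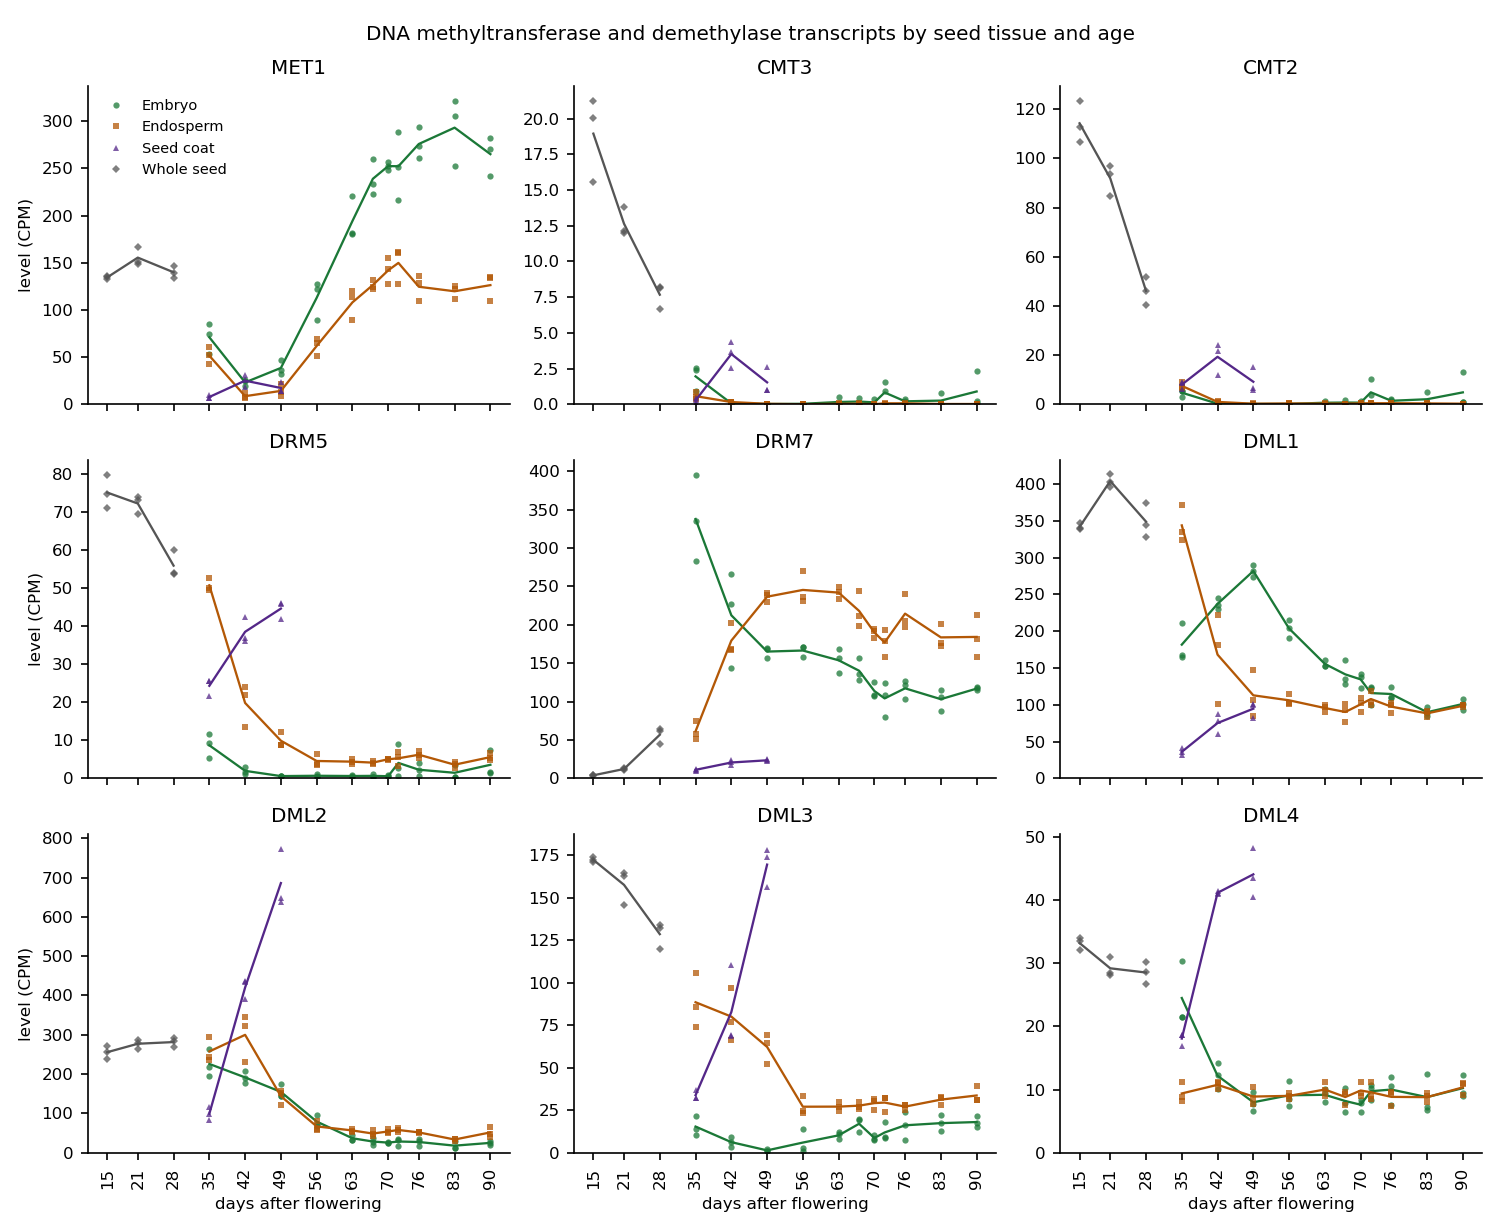
Level of each of the 9 genes in CPM, on a linear axis with its own range for each gene, against seed age in DAF, with a point for each library and a line through the group means of each tissue. MET1 is lowest in both inner tissues at 42 DAF and reaches 293 CPM in R7 embryos, whereas CMT3 stays at 2 counts or fewer in endosperms from MG onwards.

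The 9 genes followed several courses. MET1 fell in both inner tissues between 35 and 42 DAF, and its mean was higher at each later stage up to B. CMT2 fell in both tissues and CMT3 in the embryo over the same span, and in the endosperm neither passed the test as higher over a later span. DRM5 and DML3 were lower in the embryo than in the endosperm at all 11 shared stages, past the test at 9 stages for DRM5 and at 8 for DML3. DRM7 was 7.71-fold higher in the embryo than in the endosperm at 35 DAF, and was lower in the embryo from 49 DAF onwards without passing the test. DML2 and DML3 rose in the seed coat between 35 and 49 DAF.

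Embryo and endosperm were compared at each shared stage to see where the seed tissues differ. At 35 DAF, CMT3, DRM7 and DML4 were higher and DRM5 and DML3 lower in the embryo, 5 of the 9 genes, where 42.9% of all genes tested passed. At 42 DAF, 4 of the 9 passed (33.5% of all genes), as at 49 DAF (33.7%), with MET1 and DML1 higher and DRM5 and DML3 lower in the embryo at either age. DRM5 and DML3 were the 2 lower ones of 9 at MG (27.1% of all genes) and at B (27.1%), and DRM5 was the 1 that passed at PO (27.7%). In the embryo at O, DRM5, DML2 and DML3 were lower, 3 of 9 against 29.1% of all genes. At DO, CMT3 and CMT2 were higher and DML2 and DML3 lower, 4 of 9 against 30.2%. At R, MET1 was higher and DRM5 and DML2 lower, 3 of 9 against 29.3%. At R7, MET1 and CMT2 were higher and DRM5 and DML2 lower, 4 of 9 against 31.7%, and at R14 CMT3 and CMT2 were higher and DML2 and DML3 lower, 4 of 9 against 31.9%. In all, 36 of 99 gene-by-stage tests passed, 14 higher and 22 lower in the embryo, and the 1 to 5 of 9 that passed at a stage lie around the share of all genes.

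**Figure D2:**
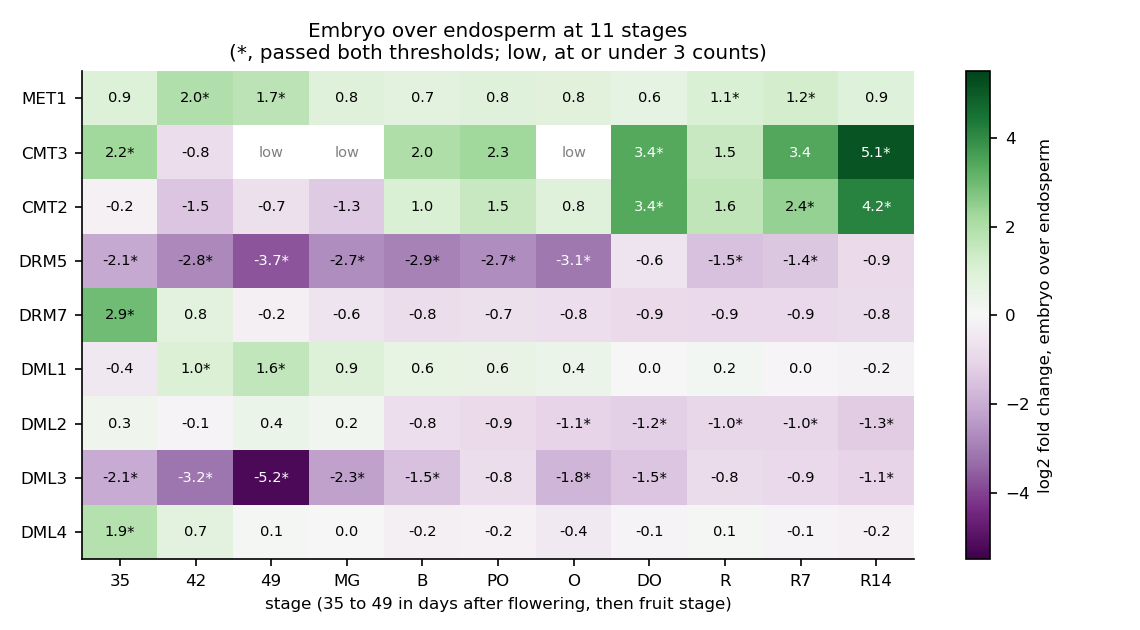
Log2 fold change of embryo over endosperm for each gene (rows) at the 11 shared stages (columns), by colour and number, with an asterisk where the test was passed and no value where both groups were at or under 3 counts a library. DRM5 and DML3 are negative at each stage, and CMT3 and CMT2 pass the test at DO and R14, where few embryo libraries set the value.

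Over time within a tissue, 4 spans were tested, 42 over 35 DAF, 49 over 42 DAF, MG over 49 DAF and R14 over MG. In the embryo, MET1, CMT3, CMT2 and DRM5 fell between 35 and 42 DAF, 4 of 9 against 19.4% of all genes, and DRM5 and DML3 fell between 42 and 49 DAF, 2 of 9 against 21.0%. Between 49 DAF and MG, DML3 rose and DML1 and DML2 fell, 3 of 9 against 6.95% of all genes. Between MG and R14, CMT3, CMT2, DRM5 and DML3 rose and DML1 and DML2 fell, 6 of 9 against 19.6%, but without embryo replicate 1 of R14 the calls of CMT3, CMT2 and DRM5 were lost and 3 of 9 passed. The fit of the compared groups alone also gave 3 of 9. In the endosperm, DRM7 rose and MET1, CMT2 and DRM5 fell between 35 and 42 DAF, 4 of 9 against 27.4%, and DML2 alone fell between 42 and 49 DAF, 1 of 9 against 19.7%. Between 49 DAF and MG, MET1 rose and DRM5, DML2 and DML3 fell in the endosperm, 4 of 9 against 12.8% of all genes. Between MG and R14, 0 of 9 passed in the endosperm by edgeR, against 12.1% of all genes, with 3 of 9 at an unadjusted p under 0.05 and 0 of 9 called by DESeq2. With library totals in place of TMM, MET1 was called there.

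The change of a gene in the embryo minus its change in the endosperm was tested over the same spans, and 10 of 36 differences passed. Over 42 against 35 DAF, 4 of 9 passed (12.5% of all genes), which were MET1 and DML1 with the higher and DRM7 and DML4 with the lower change in the embryo. Over 49 against 42 DAF, DRM7 and DML3 passed, 2 of 9 against 8.40% of all genes. Over MG against 49 DAF, DML3 was the 1 of 9 that passed (3.59% of all genes), and over R14 against MG, CMT2, DML1 and DML2 passed, 3 of 9 against 7.41%. In the whole seed, DRM7 was the 1 of 9 that passed between 15 and 28 DAF, against 23.0% of all genes, and in the seed coat DML2 and DML3 rose between 35 and 49 DAF, 2 of 9 against 25.0%, with 7 of 9 under library totals.

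Seed coat was set against the inner tissues at 35 DAF and, in a comparison added after the values had been seen, at 49 DAF. At 35 DAF, DRM5 and DML3 were higher and MET1, CMT3, DRM7, DML1 and DML2 lower in the seed coat than in the embryo, 7 of 9 against 47.7% of all genes. Against the endosperm, DML4 was higher and MET1, DRM7, DML1, DML2 and DML3 lower, 6 of 9 against 43.4%. At 49 DAF, CMT3, CMT2, DRM5, DML2, DML3 and DML4 were higher and MET1, DRM7 and DML1 lower in the seed coat than in the embryo, 9 of 9 against 52.8% of all genes. Against the endosperm, CMT3, CMT2, DRM5, DML2 and DML4 were higher and DRM7 lower, 6 of 9 against 50.5%.

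**Figure D3:**
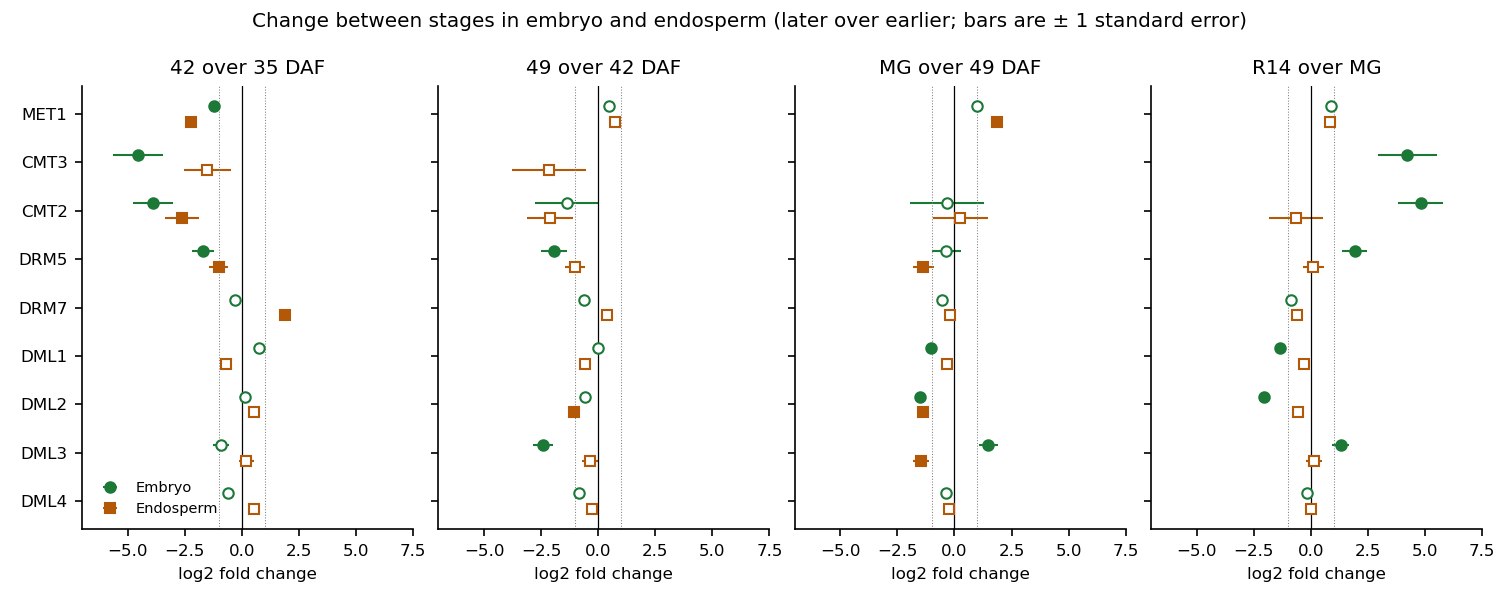
Log2 fold change of each gene over the tested spans in embryo and endosperm, later over earlier stage, with bars of ± 1 standard error, filled points where the test was passed and no point where both stages were at or under 3 counts a library. MET1 is at -1.22 in the embryo and -2.25 in the endosperm over 42 against 35 DAF, and DRM7 is at 1.89 in the endosperm over the same span.

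MET1, the maintenance enzyme of CG methylation, averaged 71.0 ± 16.6 CPM in embryos at 35 DAF, 23.1 ± 2.94 at 42 DAF, 38.5 ± 8.01 at 49 DAF and 113 ± 20.6 CPM at MG, and its stage means lay between 194 and 293 CPM from B to R14. In endosperms it averaged 51.4 ± 9.08 at 35 DAF, 8.55 ± 2.46 at 42 DAF, 14.1 ± 6.30 at 49 DAF and 61.8 ± 9.34 CPM at MG, and its stage means lay between 108 and 150 CPM from B to R14. The lowest stage of either tissue was 42 DAF. MET1 had 19.8, 24.2 and 25.4 CPM in 42 DAF embryos, against 52.8, 74.6 and 85.5 CPM in 35 DAF embryos. The 42 DAF endosperms had 7.31, 6.96 and 11.4 CPM, against 42.2, 51.8 and 60.3 CPM at 35 DAF. In neither tissue did the libraries of the 2 ages overlap, and MET1 fell 2.33-fold in the embryo (log2 -1.22 ± 0.19 SE, edgeR adjusted p = 3.8e-07) and 4.76-fold in the endosperm (log2 -2.25 ± 0.20 SE, edgeR adjusted p = 1.05e-14). The embryo change exceeded the endosperm change by 1.03 ± 0.27 SE on the log2 scale (edgeR adjusted p = 0.00287), just over the threshold of 1, and with library totals the difference was 0.97. It also lay under 1, between 0.91 and 0.99, without embryo replicate 1 or endosperm replicate 2 or 3 of 35 DAF, and without embryo replicate 2 or 3 or endosperm replicate 1 or 2 of 42 DAF.

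The embryo held more MET1 transcript than the endosperm at each stage by its mean. At 35 DAF the log2 fold change was 0.94 and missed the threshold, which it passed without embryo replicate 1 (1.03) or endosperm replicate 2 (1.00). At 42 DAF the fold was 3.91 (log2 1.97 ± 0.20 SE, edgeR adjusted p = 5.3e-13), and no embryo library was as low as an endosperm library. At 49 DAF, MET1 had 31.9, 36.2 and 47.4 CPM in embryos, against 8.52, 12.9 and 20.9 CPM in endosperms, a fold of 3.29 (log2 1.72 ± 0.19 SE, edgeR adjusted p = 2.08e-11). The groups again did not overlap. From MG to DO, the log2 fold change was between 0.62 and 0.83 and missed the threshold. At R7, MET1 had 306, 322 and 252 CPM in embryos, against 122, 126 and 112 CPM in endosperms, a fold of 2.35 (log2 1.23 ± 0.19 SE, edgeR adjusted p = 7.77e-08). All R7 embryos were above all R7 endosperms. At R the log2 fold change was 1.07 ± 0.18 SE (edgeR adjusted p = 2.12e-06), which went to 0.98 without endosperm replicate 3, and at R14 it was 0.88 with TMM and 1.07 with library totals.

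MET1 also rose between 49 DAF and MG, which in the endosperm passed the test with a fold of 3.67 (log2 1.88 ± 0.19 SE, edgeR adjusted p = 1.06e-11). The MG endosperms had 51.2, 68.8 and 65.3 CPM, all above the 49 DAF endosperms. In the embryo the same change was 0.99 ± 0.19 SE on the log2 scale and missed the threshold, with 1.55 under library totals. Between MG and R14, the log2 change of MET1 was under the threshold, at 0.90 in embryos and 0.85 in endosperms. With library totals it passed, at 1.23 in embryos (edgeR adjusted p = 9.13e-07) and 1.03 in endosperms (edgeR adjusted p = 4.33e-05). Whole seeds had between 132 and 167 CPM over 15, 21 and 28 DAF. In seed coats the mean was 7.68 ± 1.65 at 35 DAF, 25.0 ± 5.98 at 42 DAF and 17.2 ± 5.56 CPM at 49 DAF. At 35 DAF, MET1 had 6.39, 9.54 and 7.11 CPM in seed coats, which was 10.2-fold lower than in embryos (log2 -3.35 ± 0.20 SE, edgeR adjusted p = 5.24e-22) and 5.32-fold lower than in endosperms (log2 -2.41 ± 0.20 SE, edgeR adjusted p = 2.31e-16). At 49 DAF the seed coat was 3.97-fold lower than the embryo (edgeR adjusted p = 5.06e-14), whereas its libraries overlapped with those of the endosperm.

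CMT3, the enzyme of CHG methylation, had its highest levels in young whole seeds and was near the limit of detection in the inner tissues after 35 DAF. Whole seeds had 15.6, 21.2 and 20.1 at 15 DAF, 12.0, 12.1 and 13.8 at 21 DAF and 8.22, 6.69 and 8.11 CPM at 28 DAF. The libraries of these 3 ages did not overlap, but the change between 15 and 28 DAF did not pass the test (log2 -0.93 ± 0.70 SE, edgeR adjusted p = 0.293). At 35 DAF, CMT3 had 0.924, 2.42 and 2.52 CPM in embryos, against 0.367, 0.500 and 0.833 CPM in endosperms. The lowest embryo library lay just above the highest endosperm library, and the fold of 4.72 (log2 2.24 ± 0.81 SE, edgeR adjusted p = 0.0144) was not called without endosperm replicate 1 (adjusted p = 0.0560), by DESeq2 (adjusted p = 0.0829) or with library totals (adjusted p = 0.0588).

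At 42 DAF the embryo libraries held 1, 0 and 3 counts of CMT3, against 21, 54 and 56 counts at 35 DAF, a count ratio of 0.0306 (95% exact interval 0.00821 to 0.0802, edgeR adjusted p = 0.000821). All 42 DAF libraries were at or under the limit of 3 counts. In endosperms, none of the 27 libraries from 49 DAF to R14 held more than 2 counts, and 14 of them held 0. In embryos from MG to R14, 14 of 24 libraries held 3 counts or fewer and the highest held 50. At DO the embryo libraries held 19, 33 and 0 counts, against 2, 1 and 1 in endosperms, a count ratio of 12.9 (95% exact interval 4.75 to 49.2, edgeR adjusted p = 0.0120). The third embryo library lay below all endosperm libraries of that stage, and without embryo replicate 2 the adjusted p was 0.102. At R14 the embryo libraries held 50, 5 and 2 counts, against 0, 0 and 1 in endosperms, a count ratio of 56.7 (95% exact interval 9.78 to 2279, edgeR adjusted p = 0.00177). Without embryo replicate 1, which held most of these counts, the adjusted p was 0.183. The same library carried the rise of CMT3 in the embryo between MG and R14, with a count ratio of 28.9 (95% exact interval 7.64 to 244, edgeR adjusted p = 0.00675) and an adjusted p of 0.397 without it.

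In seed coats CMT3 had 6, 10 and 2 counts at 35 DAF, 76, 94 and 55 counts at 42 DAF and 56, 21 and 21 counts at 49 DAF. The 42 DAF libraries were all above those of the other ages except replicate 1 of 49 DAF, which lay just above the lowest of them. At 35 DAF the seed coat was 7.78-fold lower than the embryo (log2 -2.96 ± 0.88 SE, edgeR adjusted p = 0.00269). At 49 DAF the seed coats were the higher ones, against 0, 0 and 1 counts in embryos and 1, 1 and 0 in endosperms. The count ratio was 100.2 over the embryo (95% exact interval 17.6 to 3999, edgeR adjusted p = 0.000497) and 49.3 over the endosperm (95% exact interval 13.3 to 412, edgeR adjusted p = 0.000537).

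CMT2, the chromomethylase of CHH methylation, followed a like course at more counts. Whole seeds averaged 114 ± 8.34 at 15 DAF, 91.9 ± 6.33 at 21 DAF and 46.1 ± 5.82 CPM at 28 DAF, a change that did not pass the test (log2 -0.94 ± 0.61 SE, edgeR adjusted p = 0.217). CMT2 had 0.224, 0.267 and 0.222 CPM in 42 DAF embryos, against 3.08, 5.46 and 5.57 CPM in 35 DAF embryos. The 42 DAF endosperms had 0.326, 1.1 and 1.42 CPM, against 6.56, 6.96 and 8.89 CPM at 35 DAF. The ages did not overlap in either tissue, and CMT2 fell 14.8-fold in the embryo (log2 -3.89 ± 0.88 SE, edgeR adjusted p = 0.000345) and 6.18-fold in the endosperm (log2 -2.63 ± 0.73 SE, edgeR adjusted p = 0.00217). From MG to R14, the 24 endosperm libraries stayed between 0.0939 and 0.705 CPM. The 24 embryo libraries ran from 0.0459 to 13.1 CPM with a median of 0.677 CPM, so a few of them lay far above the others.

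At R14, CMT2 had 13.1, 0.715 and 0.714 CPM in embryos, against 0.239, 0.193 and 0.234 CPM in endosperms. All embryos were above all endosperms, by a fold of 17.8 (log2 4.15 ± 0.90 SE, edgeR adjusted p = 8.73e-05), but without embryo replicate 1 the log2 fold change was 1.51 (adjusted p = 0.208). At DO, CMT2 had 3.69, 10.4 and 0.436 CPM in embryos, against 0.292, 0.378 and 0.533 CPM in endosperms, and the third embryo library fell among the endosperms (log2 3.37 ± 0.82 SE, edgeR adjusted p = 0.000488). At R7, CMT2 had 0.668, 0.287 and 5.15 CPM in embryos, against 0.142, 0.481 and 0.385 CPM in endosperms, and the groups overlapped (log2 2.43 ± 0.88 SE, edgeR adjusted p = 0.0167). Without embryo replicate 3 of R7 the log2 fold change was 0.52 (adjusted p = 0.730), and without endosperm replicate 1 the adjusted p was 0.0719. CMT2 rose 28.1-fold in the embryo between MG and R14 (log2 4.81 ± 0.99 SE, edgeR adjusted p = 7.05e-05), against 2.17 on the log2 scale and an adjusted p of 0.126 without embryo replicate 1 of R14. The embryo change over this span exceeded the endosperm change by 5.47 ± 1.61 SE on the log2 scale (edgeR adjusted p = 0.0142), with 2.83 (adjusted p = 0.250) without that library and 5.06 (adjusted p = 0.0672) without endosperm replicate 3 of MG. In seed coats CMT2 averaged 7.97 ± 1.5 at 35 DAF, 19.3 ± 6.40 at 42 DAF and 9.15 ± 5.04 CPM at 49 DAF. At 49 DAF the seed coats had 15.0, 6.66 and 5.83 CPM, all above the inner tissues, 45.8-fold higher than the embryo (edgeR adjusted p = 1.8e-06) and 27.8-fold higher than the endosperm (edgeR adjusted p = 3.59e-06).

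The high values of the late embryo came from few libraries. From MG to R14, 4 of the 24 embryo libraries, replicates 1 and 2 of DO, 3 of R7 and 1 of R14, had a summed level above 80 CPM over 11 genes that the study annotates with DNA replication initiation, between 87.5 and 230 CPM, against 14.6 to 52.3 CPM in the other 20. These 4 libraries held 0.763 to 2.35 CPM of CMT3, against 0 to 0.472 CPM in the other 20, and 3.69 to 13.1 CPM of CMT2, against 0.0459 to 1.99 CPM. They held 2.74 to 8.95 CPM of DRM5, against 0.336 to 3.94 CPM. For CMT3 and CMT2 the 4 libraries were all above the other 20, and for DRM5 they overlapped with them. MET1 did not set these libraries apart, with 217 to 271 CPM, against 89.2 to 322 CPM. The seed coat marker Solyc06g064840 was at 0.0469 to 0.333 CPM in the 4 libraries, against 0 to 1.49 CPM in the other 20, and the 24 endosperm libraries of these stages had summed replication levels of 8.95 to 25.4 CPM. What sets the 4 libraries apart was not tested.

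Across the 24 late embryo libraries, the log2(summed CPM + 1) of the replication genes was related to the log2(CPM + 1) of each of the 9 genes. The relation was noticed in these data, and the replication list was taken from the study, so neither is independent of the other results. The p-values below do not account for that choice, and those over all libraries ignore the stages. They describe the relation and are no independent test of it. Pearson's r was 0.95 for CMT3, 0.98 for CMT2 and 0.92 for DRM5, and Spearman's rho was 0.79, 0.94 and 0.75 (permutation test with 100000 resamples, two-sided, p = 1e-05 for each r, the smallest p that these resamples can give, 3e-05 after Benjamini-Hochberg adjustment over the 9 relations; adjusted p of rho = 9e-05 for CMT3 and CMT2 and 0.00018 for DRM5). Among the 20 libraries at or under 80 CPM alone, r was 0.88 for CMT3, 0.93 for CMT2 and 0.73 for DRM5. Without the 2 libraries farthest from the median replication level, r was 0.94 for CMT3, 0.96 for CMT2 and 0.83 for DRM5. Within stages, after the stage means were taken off, r was 0.96 for CMT3, 0.97 for CMT2 and 0.95 for DRM5 (permutation within stages, adjusted p = 0.00021 for CMT3 and CMT2 and 0.000225 for DRM5). DML4 had an r of 0.70 over all libraries and 0.77 within stages (permutation, adjusted p = 0.000157 and 0.00018), with a rho of 0.65 (adjusted p = 0.00198) and an r of 0.69 without the 2 libraries. DML2 had an r of -0.013 over all libraries (rho 0.0078, permutation adjusted p = 0.952 and 0.972) and 0.80 within stages (permutation adjusted p = 0.00124). MET1 had an r of 0.29 and a rho of 0.33, with -0.43 within stages (permutation, adjusted p = 0.197, 0.156 and 0.144). DRM7 had an r of -0.50 and a rho of -0.55 (permutation adjusted p = 0.0249 and 0.0118), which was -0.30 without the 2 libraries and -0.20 within stages (permutation adjusted p = 0.812). DML1 had an r of -0.43 and a rho of -0.52 (permutation adjusted p = 0.0511 and 0.0159), with 0.12 within stages (adjusted p = 0.812), and DML3 an r of 0.27 and a rho of 0.30 (permutation adjusted p = 0.214 and 0.172), with -0.020 within stages (adjusted p = 0.917).

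**Figure D4:**
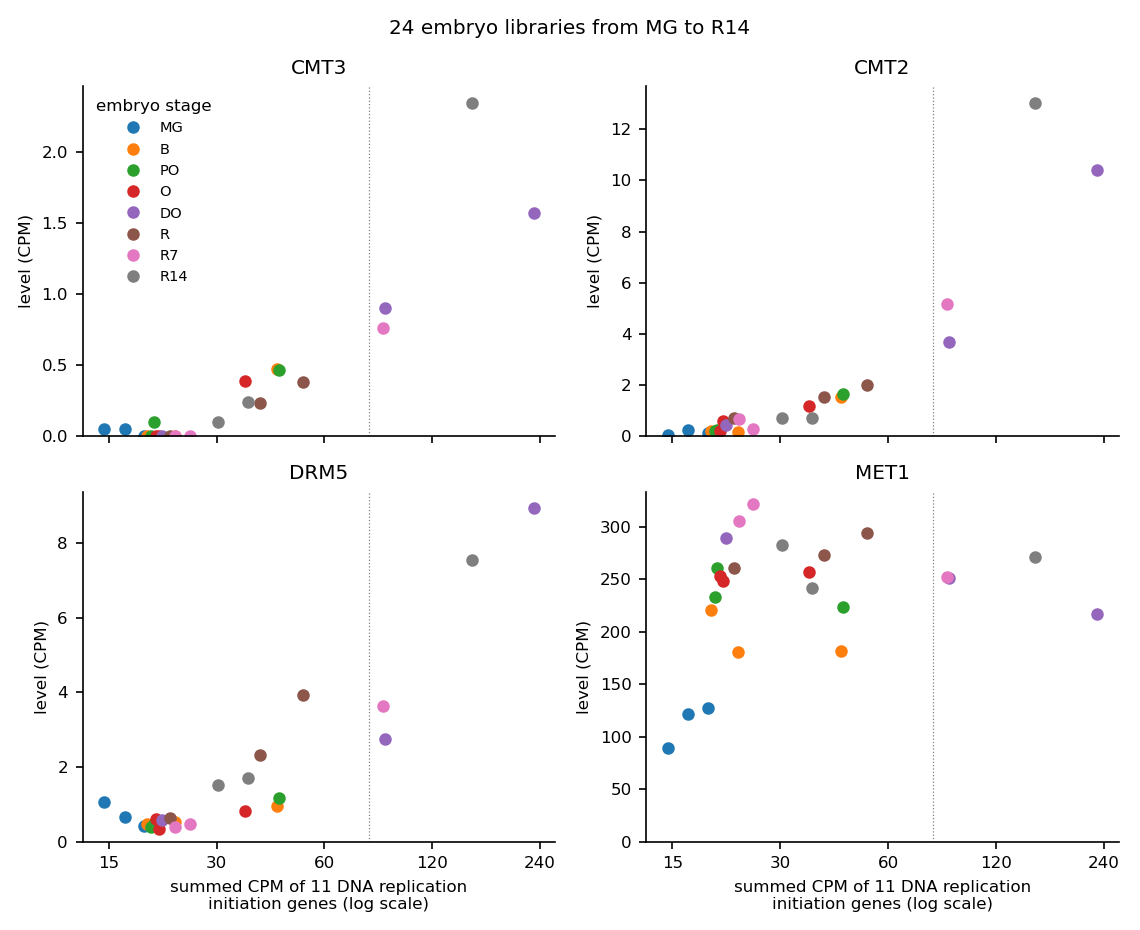
CMT3, CMT2, DRM5 and MET1 in CPM against the summed CPM of 11 DNA replication initiation genes in the 24 embryo libraries from MG to R14, coloured by stage, with a linear vertical axis, a logarithmic horizontal axis and a dotted line at 80 CPM. The 4 libraries right of the line hold the highest CMT3 and CMT2 levels and lie among the others for MET1.

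The 4 libraries were also left out of the comparisons of DO, R7 and R14, which was done after the values had been seen and left DO with 1 embryo library, assumed to vary like the other groups. The embryo over endosperm fold of CMT2 on the log2 scale then was 0.10 at DO, 0.51 at R7 and 1.51 at R14 (edgeR adjusted p = 0.0941), and that of CMT3 was 2.84 at R14 (edgeR adjusted p = 0.107). At DO the remaining embryo library held 0 counts of CMT3 and the endosperms at most 2, so no fold is given. The 4 libraries hold the highest CMT3 and CMT2 levels of the late embryo and include those with the highest DRM5 levels of DO and R14. The embryo over endosperm values of CMT3, CMT2 and DRM5 without these libraries thus follow from their choice. They are not read as a result. With these 4 libraries left out, 33 calls in place of 36 were counted for embryo over endosperm, among them DRM5 at DO and R14, 13 in place of 15 over stages in the embryo and 9 in place of 10 for the difference of changes. Between MG and R14 in the embryo, 4 calls in place of 6 were left, with CMT3 and DRM5 lost. The CMT2 rise, which was lost without replicate 1 of R14 alone, was still called there. The samples are bulk tissues, so fewer cells of a type and less RNA per cell cannot be told apart.

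The 11 replication genes moved with some results of the methyltransferases and not with others, as a list that the study drew from these samples. All 11 passed the test as lower in 42 DAF than in 35 DAF embryos, where 19.4% of all genes passed. Their median log2 fold change was -3.40, against -0.050 over all genes. In the endosperm 10 of 11 were lower over the same span (median -2.65), where 27.4% of all genes passed. Their summed level averaged 18.0 CPM in 42 DAF embryos, against 228.5 CPM at 35 DAF, and 16.5 CPM in 42 DAF endosperms, against 125 CPM at 35 DAF. MET1, CMT2 and DRM5 fell in both tissues over this span, and CMT3 in the embryo. In whole seeds the summed level was 937 at 15 DAF, 828 at 21 DAF and 530.5 CPM at 28 DAF. By the test, 0 of 11 were lower and 1 was higher at 28 than at 15 DAF (median -0.46), where 23.0% of all genes passed. The lower sum is thus not read as a fall. At 49 DAF all 11 genes were higher in the seed coat than in the embryo (median 4.07) and the endosperm (median 3.84), where 52.8% and 50.5% of all genes passed. CMT3, CMT2 and DRM5 were also higher there than in both inner tissues. DRM7 was lower than in both, and MET1 was lower than in the embryo. At 35 DAF, 8 of 11 were higher in the embryo than in the endosperm (median 1.33), where 42.9% of all genes passed. There CMT3 was also higher, DRM5 was lower and CMT2 did not pass. In the 35 DAF seed coat, 9 of 11 were lower than in the embryo (median -2.19), where 47.7% of all genes passed. MET1 and CMT3 were also lower there, whereas DRM5 was higher. Between 49 DAF and MG, where MET1 rose in the endosperm, the median of the list was 0.47 in the endosperm and -0.086 in the embryo. The part of replicating cells in these results was not tested.

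DRM5, a methyltransferase of the small RNA-guided class, was lower in the embryo than in the endosperm at each stage. At 35 DAF it had 5.28, 9.31 and 11.6 CPM in embryos, against 50.2, 49.5 and 52.8 CPM in endosperms, and was 4.26-fold lower in the embryo (log2 -2.09 ± 0.45 SE, edgeR adjusted p = 4.84e-05). At 49 DAF it had 0.592, 0.643 and 0.641 CPM in embryos, against 12.1, 8.88 and 8.82 CPM in endosperms, a 13.1-fold lower level (log2 -3.71 ± 0.55 SE, edgeR adjusted p = 5.53e-08). No embryo library reached the lowest endosperm library at either age. From MG to O, DRM5 was 6.38- to 8.64-fold lower in the embryo, and from DO onwards the embryo libraries spread. At DO the embryos had 2.74, 8.95 and 0.581 CPM, against 5.54, 7.00 and 3.39 CPM in endosperms, which overlapped (log2 -0.58 ± 0.46 SE, edgeR adjusted p = 0.304). The call at R (log2 -1.54 ± 0.48 SE, edgeR adjusted p = 0.00582) was lost without embryo replicate 1 (-1.13, adjusted p = 0.0669), and that at R7 (log2 -1.41 ± 0.51 SE, edgeR adjusted p = 0.0161) without embryo replicate 1 (-0.99) or 2 (-1.02, adjusted p = 0.119). At R14 the log2 fold change was -0.87 and missed the test, which it passed with a replicate block (-1.16, edgeR adjusted p = 0.0335) and without embryo replicate 1 (-1.94, edgeR adjusted p = 0.00179).

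Over time, DRM5 in endosperms averaged 50.8 ± 1.75 at 35 DAF, 19.9 ± 5.62 at 42 DAF, 9.93 ± 1.88 at 49 DAF and 4.60 ± 1.53 CPM at MG, and its stage means stayed between 3.62 and 6.25 CPM afterwards. In embryos it averaged 8.72 ± 3.20 at 35 DAF, 2.00 ± 0.956 at 42 DAF, 0.625 ± 0.0286 at 49 DAF and 0.713 ± 0.317 CPM at MG. The fall in the embryo was 3.29-fold between 35 and 42 DAF (log2 -1.72 ± 0.48 SE, edgeR adjusted p = 0.00327) and 3.79-fold between 42 and 49 DAF (log2 -1.92 ± 0.58 SE, edgeR adjusted p = 0.00555), with an adjusted p of 0.0662 for the second without replicate 3 of 42 DAF. In the endosperm, the fall between 35 and 42 DAF was at the edge of both thresholds (log2 -1.02 ± 0.43 SE, edgeR adjusted p = 0.0445). It was lost without any of 5 of its 6 libraries, all but replicate 3 of 42 DAF, with log2 fold changes of -0.80 to -1.11 and adjusted p of 0.0636 to 0.191. The fall in the endosperm between 49 DAF and MG (log2 -1.37 ± 0.45 SE, edgeR adjusted p = 0.0160) was lost without replicate 1 of 49 DAF (-1.18, adjusted p = 0.0743), without replicate 2 or 3 of MG (adjusted p = 0.0727 and 0.0802) and with library totals (adjusted p = 0.0698). The rise in the embryo between MG and R14 (log2 1.93 ± 0.55 SE, edgeR adjusted p = 0.00387) was 0.85 without embryo replicate 1 of R14 (adjusted p = 0.299).

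DRM5 stayed high in seed coats. They averaged 24.4 ± 2.26 at 35 DAF, 38.6 ± 3.46 at 42 DAF and 44.7 ± 2.33 CPM at 49 DAF, a change that did not pass the test (log2 0.33 ± 0.42 SE, edgeR adjusted p = 0.573). At 35 DAF the seed coat was 2.55-fold higher than the embryo (log2 1.35 ± 0.44 SE, edgeR adjusted p = 0.00575). At 49 DAF, DRM5 had 46.3, 45.8 and 42.0 CPM in seed coats and was 40.0-fold higher than in the embryo (log2 5.32 ± 0.56 SE, edgeR adjusted p = 1.07e-12) and 3.06-fold higher than in the endosperm (log2 1.61 ± 0.44 SE, edgeR adjusted p = 0.000989). All seed coat libraries were far above those of both inner tissues. In whole seeds the level lay between 53.8 and 79.7 CPM.

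DRM7, of the same class, was higher in the embryo than in the endosperm at 35 DAF and by its mean at 42 DAF. It was high in the embryo from the first stage, with 284, 335 and 395 CPM in 35 DAF embryos, against 51.4, 58.5 and 74.6 CPM in 35 DAF endosperms, and was 7.71-fold higher in the embryo (log2 2.95 ± 0.16 SE, edgeR adjusted p = 4.21e-23). The groups were wide apart. In endosperms DRM7 had 202, 168 and 168 CPM at 42 DAF, against 51.4, 58.5 and 74.6 CPM at 35 DAF, and it rose 3.70-fold (log2 1.89 ± 0.16 SE, edgeR adjusted p = 2.56e-15). In embryos its stage mean was 338 ± 55.6 at 35 DAF, 212 ± 62.3 at 42 DAF, 165 ± 7.23 CPM at 49 DAF and 103 to 167 CPM from MG to R14. No embryo span passed the test, though the change between MG and R14 was -0.86 ± 0.15 SE on the log2 scale (edgeR adjusted p = 8.1e-06).

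The 35 to 42 DAF change of DRM7 was lower in the embryo than in the endosperm by -2.18 ± 0.22 SE on the log2 scale (edgeR adjusted p = 1.4e-11). The 42 to 49 DAF difference, -1.01 ± 0.22 SE (edgeR adjusted p = 0.000581), was at the threshold and was -0.76 with library totals, and it lay between -0.86 and -0.98 without replicate 2 or 3 of 42 DAF embryos, 2 or 3 of 42 DAF endosperms or 3 of 49 DAF embryos. From MG to R14 the endosperm stage means lay between 177 and 246 CPM, and the log2 embryo over endosperm fold was between -0.58 and -0.94 (largest edgeR adjusted p = 0.00126), but none exceeded 1 in size. Leaving out embryo replicate 1 brought it past the threshold at DO (-1.01) and at R (-1.06).

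In the whole seed, DRM7 had 44.7, 64.7 and 61.4 CPM at 28 DAF, against 4.73, 3.31 and 4.28 CPM at 15 DAF, with 10.9 to 14.1 CPM at 21 DAF. It rose 17.9-fold between 15 and 28 DAF (log2 4.16 ± 0.18 SE, edgeR adjusted p = 4.14e-28), and the ages did not overlap. Seed coats stayed low, between 10.1 and 25.0 CPM over the 3 ages. At 35 DAF they were 33.5-fold lower than the embryo (log2 -5.07 ± 0.18 SE, edgeR adjusted p = 4.51e-32) and 4.35-fold lower than the endosperm (log2 -2.12 ± 0.16 SE, edgeR adjusted p = 1.69e-17), and at 49 DAF 12.4-fold and 14.6-fold lower.

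DML1, a demethylase related to Arabidopsis ROS1, had different courses in embryo and endosperm. Endosperms averaged 344 ± 25.2 at 35 DAF, 168 ± 61.2 at 42 DAF, 113 ± 31.4 at 49 DAF and 106 ± 7.21 CPM at MG, and stage means of 88.4 to 108 CPM followed. Embryos averaged 182 ± 26.0 at 35 DAF, 237 ± 7.04 at 42 DAF, 282 ± 8.51 at 49 DAF and 204 ± 11.7 CPM at MG, and stage means declined to between 90.0 and 116 CPM from DO onwards. The highest embryo mean was at 49 DAF in CPM and at 42 DAF after TMM scaling, while the endosperm mean was highest at 35 DAF by either. The 35 to 42 DAF change was higher in the embryo than in the endosperm by 1.46 ± 0.22 SE on the log2 scale (edgeR adjusted p = 5.84e-07), although neither tissue's own change passed the test (log2 0.76 in the embryo and -0.70 in the endosperm, the second -1.03 with library totals).

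At 49 DAF, DML1 had 273, 281 and 290 CPM in embryos, against 85.2, 107 and 147 CPM in endosperms, and was 3.04-fold higher in the embryo (log2 1.60 ± 0.16 SE, edgeR adjusted p = 3.61e-13) with no overlap. At 42 DAF it was 2.04-fold higher (log2 1.03 ± 0.16 SE, edgeR adjusted p = 9.42e-08), which was 0.50 on the log2 scale with library totals, 1.00 without embryo replicate 1 and 0.76 without endosperm replicate 1. In the embryo DML1 fell 2.57-fold between MG and R14 (log2 -1.36 ± 0.16 SE, edgeR adjusted p = 2.72e-10), with 108, 93.4 and 102 CPM at R14, against 205, 191 and 215 CPM at MG. The 2 stages did not overlap. This change was lower in the embryo than in the endosperm by -1.08 ± 0.22 SE on the log2 scale (edgeR adjusted p = 0.000365), -0.90 with library totals. The call between 49 DAF and MG (log2 -1.03 ± 0.16 SE, edgeR adjusted p = 1.08e-06) was -0.97 without embryo replicate 2 of MG and -0.47 with library totals.

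Whole seeds had between 328 and 413 CPM of DML1. At 35 DAF the seed coats had 35.4, 41.5 and 31.6 CPM, 5.62-fold lower than the embryo (log2 -2.49 ± 0.16 SE, edgeR adjusted p = 1.36e-20) and 7.58-fold lower than the endosperm (log2 -2.92 ± 0.17 SE, edgeR adjusted p = 6.52e-23). At 49 DAF they averaged 94.8 ± 10.5 CPM, 5.26-fold lower than the embryo (edgeR adjusted p = 4.01e-20), and they overlapped with the endosperm.

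DML2, which is known for its part in fruit ripening, had its highest level in the seed coat. In embryo and endosperm its means were lower from MG onwards than at 35, 42 or 49 DAF. Seed coats had 116, 99.2 and 82.0 at 35 DAF, 434, 436 and 390 at 42 DAF and 638, 648 and 771 CPM at 49 DAF. The ages did not overlap, and DML2 rose 4.75-fold between 35 and 49 DAF (log2 2.25 ± 0.22 SE, edgeR adjusted p = 9.29e-13). The seed coat was 2.54-fold lower than the embryo at 35 DAF (log2 -1.34 ± 0.22 SE, edgeR adjusted p = 1.88e-07) and 2.49-fold higher at 49 DAF (log2 1.32 ± 0.22 SE, edgeR adjusted p = 2.39e-07). Against the endosperm it was 3.26-fold higher at 49 DAF (log2 1.71 ± 0.22 SE, edgeR adjusted p = 5.1e-10). At 35 DAF it was lower by -1.06 ± 0.21 SE on the log2 scale (edgeR adjusted p = 2.01e-05), which went to -0.93 without endosperm replicate 1, to -0.93 without seed coat replicate 3 and to -0.99 by DESeq2.

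In embryos DML2 averaged 226 ± 35.1 at 35 DAF, 192 ± 15.7 at 42 DAF, 155 ± 16.9 at 49 DAF, 79.3 ± 14.0 at MG and 36.7 ± 7.26 CPM at B, and between 17.9 and 28.5 CPM from PO onwards. In endosperms it averaged 258 ± 31.1 at 35 DAF, 300 ± 61.9 at 42 DAF, 144 ± 18.5 at 49 DAF and 66.9 ± 12.4 CPM at MG, with stage means of 33.5 to 57.8 CPM afterwards. Up to MG no difference between the tissues passed the test. DML2 had 30.1, 25.8 and 19.2 CPM in R14 embryos, against 95.3, 68.9 and 73.9 CPM in MG embryos, and fell 4.10-fold (log2 -2.04 ± 0.22 SE, edgeR adjusted p = 5.18e-11). The stages did not overlap. The same change in the endosperm missed the threshold (log2 -0.55 ± 0.21 SE), and the embryo change was lower than the endosperm change by -1.49 ± 0.30 SE (edgeR adjusted p = 0.00038). Between 49 DAF and MG, DML2 fell 2.86-fold in the embryo (log2 -1.52 ± 0.22 SE, edgeR adjusted p = 3.58e-07, -0.96 on the log2 scale with library totals) and 2.57-fold in the endosperm (log2 -1.36 ± 0.22 SE, edgeR adjusted p = 1.03e-06). The endosperm call between 42 and 49 DAF (log2 -1.06 ± 0.21 SE, edgeR adjusted p = 6.04e-05) was -0.93 without replicate 2 of 42 DAF and -0.96 without replicate 2 of 49 DAF.

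From O onwards DML2 was lower in the embryo than in the endosperm at each stage, by -1.02 to -1.26 on the log2 scale. At O it had 25.4, 26.7 and 24.9 CPM in embryos, against 49.3, 59.8 and 53.2 CPM in endosperms, and was 2.15-fold lower (log2 -1.11 ± 0.22 SE, edgeR adjusted p = 2.07e-05). No embryo library was as high as an endosperm library from O to R14. These folds lay close to the threshold. The fold fell under it at DO without embryo replicate 3 (-0.99) and at R14 without endosperm replicate 3 (-0.98). At R it was -0.92 with library totals and between -0.81 and -0.99 without embryo replicate 1 or endosperm replicate 2 or 3. At R7 it was -0.91 with library totals and between -0.83 and -0.95 without embryo replicate 1 or 2 or endosperm replicate 1.

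DML3, related to Arabidopsis DEMETER, was lower in the embryo than in the endosperm at each stage. The gap was widest at 49 DAF, when embryos had 2.32, 0.872 and 0.916 CPM, against 64.8, 52.5 and 69.5 CPM in endosperms, a 37.1-fold lower level (log2 -5.21 ± 0.44 SE, edgeR adjusted p = 1.19e-15). At 35 DAF it was 4.16-fold lower and at 42 DAF 8.99-fold lower in the embryo (edgeR adjusted p = 1.31e-06 and 1.87e-10). The tissues did not overlap at any stage. After B, the difference was smaller, with log2 fold changes of -0.79 at PO, -0.82 at R and -0.93 at R7 that missed the threshold of 1. Those of -1.78 at O and -1.46 at DO passed it. At R14 it was -1.09 ± 0.35 SE (edgeR adjusted p = 0.00698), with -0.94 without embryo replicate 1, -0.93 without endosperm replicate 3 and -0.90 with library totals.

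In embryos DML3 averaged 15.4 ± 5.65 at 35 DAF, 6.21 ± 2.85 at 42 DAF, 1.37 ± 0.826 at 49 DAF, 5.97 ± 6.80 CPM at MG and 8.67 to 18.1 CPM from B to R14. Its embryo minimum was 49 DAF. The change between 35 and 42 DAF missed the threshold (log2 -0.91), which it passed with library totals (-1.31, edgeR adjusted p = 0.00382). The fall between 42 and 49 DAF was 5.32-fold (log2 -2.41 ± 0.42 SE, edgeR adjusted p = 4.93e-06), and lower than the endosperm change by -2.04 ± 0.54 SE on the log2 scale (edgeR adjusted p = 0.00599). Between 49 DAF and MG, the embryos had 1.15, 3.03 and 13.7 CPM at MG, against 2.32, 0.872 and 0.916 CPM at 49 DAF, and the lowest MG library lay among those of 49 DAF. This rise (log2 1.49 ± 0.42 SE, edgeR adjusted p = 0.00779) rested on replicate 3 of MG, without which it was 0.055, and its adjusted p was 0.0626 and 0.0677 without replicate 2 or 3 of 49 DAF. The endosperm fell over the same span, 2.74-fold (log2 -1.46 ± 0.35 SE, edgeR adjusted p = 0.000787), with 33.5, 23.4 and 24.4 CPM at MG, and the embryo change was higher by 2.94 ± 0.55 SE (edgeR adjusted p = 0.000183). This difference was 1.51 (edgeR adjusted p = 0.0471) without embryo replicate 3 of MG. In the fit of the compared groups alone neither DML3 difference passed (edgeR adjusted p = 0.0684 for MG against 49 DAF and 0.0588 for 49 against 42 DAF). The rise in the embryo between MG and R14 (log2 1.31 ± 0.37 SE, edgeR adjusted p = 0.00299) was 0.85 without replicate 1 of MG (adjusted p = 0.0593).

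In seed coats DML3 had 32.4, 37.1 and 32.1 at 35 DAF, 110, 68.8 and 69.3 at 42 DAF and 157, 174 and 178 CPM at 49 DAF, and it rose 3.44-fold between 35 and 49 DAF (log2 1.78 ± 0.35 SE, edgeR adjusted p = 2.96e-05). The ages did not overlap. At 49 DAF the seed coat was 69.0-fold higher than the embryo (log2 6.11 ± 0.45 SE, edgeR adjusted p = 1.3e-18), while its fold over the endosperm was 0.90 ± 0.34 SE on the log2 scale and missed the threshold, with 1.45 under library totals. The calls at 35 DAF lay at the threshold. Over the embryo it was 1.01 ± 0.35 SE (edgeR adjusted p = 0.00993), with 0.88, 0.95 and 0.92 without embryo replicate 1, embryo replicate 2 or seed coat replicate 2. Over the endosperm it was -1.05 ± 0.35 SE (edgeR adjusted p = 0.00677), with -0.99 without endosperm replicate 3 and -0.98 by DESeq2. Whole seeds had between 120 and 174 CPM.

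DML4, a demethylase without a close Arabidopsis counterpart, showed little change in the endosperm, where its stage means stayed between 8.80 and 10.8 CPM over all 11 stages. The 35 DAF embryos had 21.6, 21.6 and 30.4 CPM, against 8.12, 8.86 and 11.2 CPM in 35 DAF endosperms, and DML4 was 3.66-fold higher in the embryo (log2 1.87 ± 0.15 SE, edgeR adjusted p = 6.18e-17). The groups did not overlap. Embryos averaged 12.2 ± 2.07 at 42 DAF and 7.99 ± 1.47 CPM at 49 DAF, changes that stayed under the threshold (log2 -0.62 and -0.86), though the first was -1.01 with library totals (edgeR adjusted p = 4.62e-06) and the second -1.05 without embryo replicate 1 of 49 DAF (edgeR adjusted p = 3.07e-07), and from MG to R14 their stage means were 7.6 to 10.2 CPM, against 8.80 to 10.3 CPM in endosperms. The 35 to 42 DAF change was lower in the embryo than in the endosperm by -1.16 ± 0.20 SE (edgeR adjusted p = 1.33e-05). Seed coats averaged 18.1 ± 0.990 at 35 DAF, 41.2 ± 0.221 at 42 DAF and 44.1 ± 3.95 CPM at 49 DAF. They were 2.42-fold higher than the endosperm at 35 DAF (log2 1.28 ± 0.15 SE, edgeR adjusted p = 2.84e-11, 0.95 on the log2 scale with library totals). At 49 DAF they were 3.09-fold higher than the embryo and 3.38-fold higher than the endosperm (edgeR adjusted p = 3.99e-15 and 3.52e-16), with 48.3, 40.5 and 43.5 CPM in seed coats, against at most 10.4 CPM in the inner tissues. Whole seeds had between 26.8 and 34.0 CPM.

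Across the 28 group means of log2(CPM + 1), the members most alike were CMT3 and CMT2, with a Pearson r of 0.95, and DRM5 and DML3 with an r of 0.90, and the least alike were CMT2 and DRM7 with an r of -0.86. These are descriptions over groups that share tissues and stages. The nearest genes depend on the measure, since 1 of the 27 named below is also among the nearest by Spearman's rho. Of all genes tested, the nearest to MET1 by this measure were Solyc08g067210, Solyc07g049480 and Solyc03g118380 (r of 0.97, 0.97 and 0.96), to CMT3 Solyc10g080400, Solyc12g056540 and Solyc09g092510 (0.99 each), and to CMT2 Solyc09g065880, Solyc10g054280 and Solyc02g085390 (0.99, 0.98 and 0.98). For DRM5 they were Solyc11g062270, Solyc04g078000 and Solyc01g094520 (0.98 each), and for DRM7 Solyc10g008860, Solyc10g081800 and Solyc12g042120 (0.98, 0.97 and 0.96). For the demethylases they were Solyc01g106040, Solyc02g093190 and Solyc01g086950 for DML1 (0.91, 0.87 and 0.86), Solyc04g074940, Solyc11g065740 and Solyc10g074630 for DML2 (0.95, 0.94 and 0.94), Solyc02g020910, Solyc11g066540 and Solyc09g091750 for DML3 (0.96, 0.94 and 0.94) and Solyc12g096760, Solyc01g091330 and Solyc03g033660 for DML4 (0.97 each). The sources used here pair these loci with no name.

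Of 3 further genes of DNA methylation that the study's annotation names, Solyc10g006200 and Solyc10g006210, both annotated with maintenance of DNA methylation, had 7.48 to 31.2 CPM and 5.92 to 17.7 CPM in embryos from MG to R14, against 4.84 to 9.76 CPM and 3.46 to 7.78 CPM in endosperms. Solyc01g015050, annotated as a factor of DNA methylation, ran from 0.136 to 5.93 CPM in endosperms and was at 0 in all embryo and seed coat libraries. Its whole seed libraries held at most 0.185 CPM, so it passed the filter on low counts through the endosperm alone. That its libraries did not overlap between embryo and endosperm, and its call as the 1 lower gene below, follow from this. They are not read as a result. At 35 and 42 DAF and from R to R14, 3 of 3 passed the test of embryo over endosperm by edgeR, 2 higher and 1 lower in the embryo, where 42.9%, 33.5% and 29.3 to 31.9% of all genes passed. At 49 DAF, MG and B, 1 of 3 passed, which was Solyc01g015050, against 33.7%, 27.1% and 27.1% of all genes. From PO to DO, 2 of 3 passed, against 27.7 to 30.2%. In the endosperm 2 of 3 rose between 35 and 42 DAF, where 27.4% of all genes passed, while MET1, CMT2 and DRM5 fell.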

How the data were processed

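Per the Methods, the authors extracted RNA with the NucleoSpin RNA Plant and Fungi kit, sequenced single-end reads by DNBseq and quantified them with Salmon on the ITAG 4.0 gene models of genome SL 4.0. The deposited table holds estimated counts of 33976 genes in 84 libraries, not scaled between libraries, of which 10.5% of the values are not whole. How the authors' quantification divided reads between related genes was not analysed here. Gene lengths and sequences were not used here, so levels are compared between groups and not between genes.

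Counts were rounded to whole numbers and tested with edgeR 4.0.16 under R 4.3.3 (glmQLFit and glmQLFTest after filterByExpr and TMM, 1 coefficient per group, all 84 libraries, Benjamini-Hochberg over 24676 genes), in place of the DESeq2 test of the study. CPM, correlations and figures were made with matplotlib 3.10.9, scipy 1.17.1, pandas 2.3.3 and numpy 2.4.6 under Python 3.11.15, with a pseudocount of 1 on the log scale. Where a group held 3 counts or fewer a library, a count ratio with an exact 95% interval is given, and where both groups did, no fold is given. On simulated counts of embryo R14 over MG, 200 of 200 planted changes of 2 on the log2 scale were recovered with 4 wrong calls among 22480 genes. All planted genes had high counts and the same fixed spread, so this does not bear on calls at low counts, such as those of CMT3. Of the planted nearest genes 9 of 9 were recovered, which was sure beforehand, since they were near copies of the members. Both runs check the code only.

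Alternatives were DESeq2 1.42.0, library totals, no filter, the compared groups alone, a replicate block and leaving out each library. Leave-one-out and block fits kept the dispersion trend of the full fit. The genes and lists were chosen with earlier results of these data known. The named genes are the 9 members and, for each, the 3 tested genes with the highest Pearson r over the group means. The planned lists of DNA methylation, DNA replication and endosperm genes could not be matched by locus and were replaced, after the data had been seen, by genes that the study annotates so. The seed coat comparison at 49 DAF and the fit without 4 embryo libraries were also added then. Sequence features were not analysed here.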

Additional observations from a re-analysis of the deposited data

Results flagged for a closer look

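In 10 tests the change over a span differed between embryo and endosperm by the test of the difference itself (edgeR, Benjamini-Hochberg over all genes). Each value is the log2 change in the embryo minus that in the endosperm, and no explanation was tested. Over 42 against 35 DAF it was -2.18 for DRM7 (adjusted p = 1.4e-11), 1.46 for DML1 (adjusted p = 5.84e-07), -1.16 for DML4 (adjusted p = 1.33e-05) and 1.03 for MET1 (adjusted p = 0.00287). Over 49 against 42 DAF it was -1.01 for DRM7 (adjusted p = 0.000581) and -2.04 for DML3 (adjusted p = 0.00599). Over MG against 49 DAF it was 2.94 for DML3 (adjusted p = 0.000183), opposite in sign to the span before, and 1.51 (adjusted p = 0.0471) without embryo replicate 3 of MG. In the fit of the compared groups alone both DML3 differences missed the threshold (adjusted p = 0.0588 and 0.0684). Over R14 against MG it was 5.47 for CMT2 (adjusted p = 0.0142), -1.08 for DML1 (adjusted p = 0.000365) and -1.49 for DML2 (adjusted p = 0.00038). The CMT2 value was 2.83 (adjusted p = 0.250) without embryo replicate 1 of R14.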

How the results depend on the processing

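Of 101 calls, 71 were kept without any single library and 30 were lost without at least 1. Leaving out a library gave 34 to 37 calls for embryo over endosperm (36 with all), 12 to 16 over stages in the embryo (15), 7 to 10 in the endosperm (9), 3 to 3 in whole seed and seed coat (3), 12 to 13 in seed coat over inner tissues at 35 DAF (13), 8 to 11 in the difference of changes (10) and 15 to 15 in seed coat over inner tissues at 49 DAF (15). Library totals in place of TMM gave 8 calls in whole seed and seed coat in place of 3 and lost 12 of the 101 calls. The compared groups alone gave 6 differences of changes in place of 10. For embryo over endosperm they gave 31 calls in place of 36, with 1 in place of 4 at R7. DESeq2 lost 3 calls and no filter lost 1. No call changed sign under library totals or DESeq2. Without the 4 embryo libraries that stand apart, an alternative chosen after seeing the data, 8 calls were lost, and for CMT3 at DO no fold could be given, since all libraries left held 3 counts or fewer. By Spearman's rho in place of Pearson's r, 1 of the 27 nearest genes was shared.

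The replicate numbers did not meet the rule used here for pairing, which asked that all pairs deviate together with a correlation above 0.1. Of 33 embryo and endosperm pairs of the same number and stage, 27 did (lowest -0.234, median 0.197, highest 0.460). The median between other numbers was -0.106, and 25 of 33 embryo libraries correlated best with their own number. This is a hint of pairing from the data and not from the design, and the main tests did not pair the libraries. The numbers used were those of the titles. The deposited column names number the PO embryos 2 to 4 and the PO endosperms 1 to 3, and by those numbers 29 of 32 pairs lay above 0.1 (lowest -0.027). The replicate block gave 36, 15, 9, 3, 13, 9 and 15 calls for the comparisons in the order above, and lost CMT2 at R7 (adjusted p = 0.0665) and the DRM7 difference over 49 against 42 DAF (-0.98), while DRM5 at R14 was gained (-1.16, adjusted p = 0.0335). A block by column number, added after seeing the data, gave the same counts and lost and gained the same calls. Depth limits CMT3 and, after 42 DAF, CMT2, where a few counts set a fold.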
